A study of Mus musculus with 16 samples.

Results

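The integrated stress response was followed through 9 of its genes in mouse neural crest cells: the transcription factors Atf4, Atf3 and Ddit3, the feedback and stress effectors Trib3, Chac1 and Sesn2, and the amino acid genes Asns, Slc7a11 and Slc3a2. They are 9 of 18194 genes measured on 16 Affymetrix arrays. A probe set counted as a member's when the platform annotation named that gene and no other, which gave 16 probe sets, and the one with the highest mean over all arrays led for its gene. Of the 9 genes, 3 had 1 such probe set and 6 had several.

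The arrays held total RNA of primary mouse neural crest material grown in a medium for neural crest stem cells, in 4 groups of 4. The groups were cells primed to glia, cells primed to neurons (titled Autonomic), cells primed to mesenchyme (titled Mesenchymal) and migratory cells that were not primed. The study asked how expression in neural crest stem cells differs once growth factors that instruct a fate have primed them. Neither the labels nor the design text name the factors, their dose, the time of exposure, the mouse strain or the age of the embryos, and the treatment field reads the same for unprimed as for primed samples. Nothing in the labels says that replicates were separate cultures or litters, so each p-value reflects the spread among these arrays alone, and part of that spread may be technical.

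The integrated stress response starts when kinases phosphorylate the initiation factor eIF2 under amino acid shortage, unfolded protein in the endoplasmic reticulum, haem shortage or double-stranded RNA. General translation then slows while Atf4 mRNA is translated more, so Atf4 activity can change with no change in its mRNA. The ATF4 protein switches on genes for amino acid synthesis and uptake, redox defence and, under lasting stress, cell death. Signalling through mTORC1 also raises ATF4 in growing cells.

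Promoter sequence is shown first because ATF4 acts through a short DNA motif, the C/EBP-ATF response element, written TGATGNAA or, on the opposite strand, TTNCATCA. Both were searched from 250 bases before to 50 bases after each RefSeq gene start in GRCm38.p6, where all 9 members had a window. At least 1 match lay in the windows of 5 members, against 1304 of 32851 windows of all genes (3.97%). Asns and Slc3a2 are given as their 250 bases before the start, since they are the genes on which the expression results turn, and the other matching members as the bases around the match. Each line runs 5′ to 3′ along the transcribed strand, with matches in capitals.
Asns, chr6:7693210-7693459, minus strand: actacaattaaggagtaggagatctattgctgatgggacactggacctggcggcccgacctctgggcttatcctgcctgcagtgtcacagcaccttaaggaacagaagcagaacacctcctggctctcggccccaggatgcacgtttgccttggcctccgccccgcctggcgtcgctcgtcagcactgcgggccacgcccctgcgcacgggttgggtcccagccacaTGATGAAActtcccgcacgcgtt
Slc3a2, chr19:8713898-8714147, minus strand: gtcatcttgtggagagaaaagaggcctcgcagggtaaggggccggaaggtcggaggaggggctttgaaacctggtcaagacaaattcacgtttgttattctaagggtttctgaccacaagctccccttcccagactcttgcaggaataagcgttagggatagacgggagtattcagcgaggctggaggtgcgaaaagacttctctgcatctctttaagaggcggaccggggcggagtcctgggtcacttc
Atf3, chr1:191183414-191183465, minus strand: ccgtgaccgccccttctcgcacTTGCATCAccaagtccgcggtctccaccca
Trib3, chr2:152344028-152344057, minus strand: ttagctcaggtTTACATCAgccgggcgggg
Chac1, chr2:119351027-119351078, plus strand: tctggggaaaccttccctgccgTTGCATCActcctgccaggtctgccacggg
Slc7a11, chr3:50443631-50443701, minus strand: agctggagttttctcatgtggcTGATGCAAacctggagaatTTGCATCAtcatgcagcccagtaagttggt
The Asns match began 23 bases before the gene start and the Atf3 match 110 bases before it. In Chac1 it began 193 bases before the start, and in Trib3 15 bases after it. Slc7a11 held 2 matches, in opposite orientations, 66 and 47 bases before its start. No match lay in the windows of Atf4, Ddit3, Sesn2 and Slc3a2, which says only that these letters are absent from those windows. A match is a run of letters, and no binding was measured.

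All values below are log2 of the deposited RMA intensity, and changes are differences between group means from a limma model fitted to all 18194 genes. A gene was called at a Benjamini-Hochberg adjusted p under 0.05 over all of these genes. Levels of different probe sets cannot be set against each other, so levels are compared only within a gene. The median gene averaged 3.89, and 8 of the 9 lead probe sets lay above it, with Slc7a11 below.

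The arrays gave few calls, and 1 array did not sit with its group. On the first principal component, with 14.4% of the variance, the neuron-primed array of replicate 1 scored -39.7, within the unprimed range (-49.65 to -21.18) and apart from the other neuron-primed arrays (28.9 to 57.3). The Gapdh control, read by probes at the 3′ and the 5′ end of the transcript, had a log2 ratio of 2.95 ± 0.39 in glia-primed cells, 2.85 ± 0.24 in neuron-primed cells and 2.96 ± 0.22 in mesenchyme-primed cells, against 2.35 ± 0.19 in unprimed cells (SD, n = 4 each). This ratio was higher in each primed group than in unprimed cells, while the primed groups differed from each other by less than their SD. The same ratio of the Actb control ran differently, at -0.17 ± 0.08 in glia-primed cells, -0.50 ± 0.28 in neuron-primed cells and -0.28 ± 0.15 in mesenchyme-primed cells, against -0.53 ± 0.16 in unprimed cells. By Actb, glia-primed cells differed from neuron-primed and from unprimed cells by more than their SD, and neuron-primed from unprimed cells by less. Xist, the RNA that coats the inactive X chromosome of female cells, averaged 3.63 ± 1.19 in glia-primed cells, 7.92 ± 3.47 in neuron-primed cells and 8.26 ± 3.83 in mesenchyme-primed cells, against 9.30 ± 1.97 in unprimed cells (SD, n = 4 each). With Xist as a covariate the number of members called was the same in every comparison. Crest markers were present in every group (7 of 7 measured above the median gene). Of 4 neural tube markers, 2 were above it in neuron-primed, mesenchyme-primed and unprimed cells and 1 in glia-primed cells. Sox1 averaged 6.16 in mesenchyme-primed and 3.37 in glia-primed cells, and Pax6 6.54 in neuron-primed and 4.34 in glia-primed cells. Of 4 blood markers, 2 were above it in mesenchyme-primed and unprimed cells and 0 in the other groups. The part of such signal in the member differences was not tested. Of the markers of the labelled fates, Fabp7 alone of 5 glial genes was above the median gene, in every group, and it averaged 7.22 in glia-primed cells, 7.54 in neuron-primed cells and 7.87 in mesenchyme-primed cells, against 8.67 in unprimed cells. Cdh19 and S100b were highest in glia-primed cells, though below the median gene in every group. Gfap and Mbp, also below it in every group, were not highest in glia-primed cells. Of 4 autonomic markers, Hand2 (4.00) and Dbh (4.17) were above the median gene in neuron-primed cells, and Phox2a (2.28) and Th (2.74) were below it. Hand2 was above it in every group, at 3.97 in glia-primed, 4.03 in mesenchyme-primed and 3.91 in unprimed cells. Dbh averaged 3.84 in glia-primed, 4.18 in mesenchyme-primed and 3.67 in unprimed cells, so neither was highest in neuron-primed cells. Phox2a averaged 1.95 in glia-primed, 1.87 in mesenchyme-primed and 2.06 in unprimed cells, and Th 2.46, 1.95 and 2.22 in the same order. Phox2a and Th were thus highest in neuron-primed cells, though below the median gene in every group. All 5 general neuron markers were above it in every group, with a mean of 6.54 in neuron-primed cells, against 5.62 in glia-primed, 5.96 in mesenchyme-primed and 5.87 in unprimed cells. Tubb3, Stmn2 and Nefm were highest in neuron-primed cells. Elavl4 averaged 5.46 there against 6.10 in mesenchyme-primed cells, and Elavl3 4.35 against 4.36. The 7 mesenchyme and smooth muscle markers had a mean of 5.66 in glia-primed cells, 5.83 in neuron-primed cells and 5.35 in mesenchyme-primed cells, against 4.35 in unprimed cells, so that their mean was lowest of the primed groups in mesenchyme-primed cells.

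Against unprimed cells, no member of the response was called in any primed group. The share of all genes called was 0.511% for glia-primed, 0.434% for neuron-primed and 0.022% for mesenchyme-primed cells, and 0.445% for the mean of the 3 primed groups. At an unadjusted p under 0.05 limma gave 1 member and 1803 of all genes for glia-primed cells, 3 and 1783 for neuron-primed cells, 2 and 1401 for mesenchyme-primed cells, and 1 and 1847 for the mean of the primed groups. Between primed groups no member was called for glia-primed against neuron-primed cells, where 0.011% of all genes were. At the unadjusted threshold 2 members passed in that comparison, with 6.24% of all genes. Asns was called for glia-primed against mesenchyme-primed cells (0.225% of all genes), and Asns and Slc3a2 for neuron-primed against mesenchyme-primed cells (0.346% of all genes). The last 2 comparisons share the mesenchyme-primed arrays. In a single F test of any difference among the 4 groups, Asns was called (adjusted p = 0.0159) and Slc3a2 was not (adjusted p = 0.0598), with 0.599% of all genes called.

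**Figure D1:**
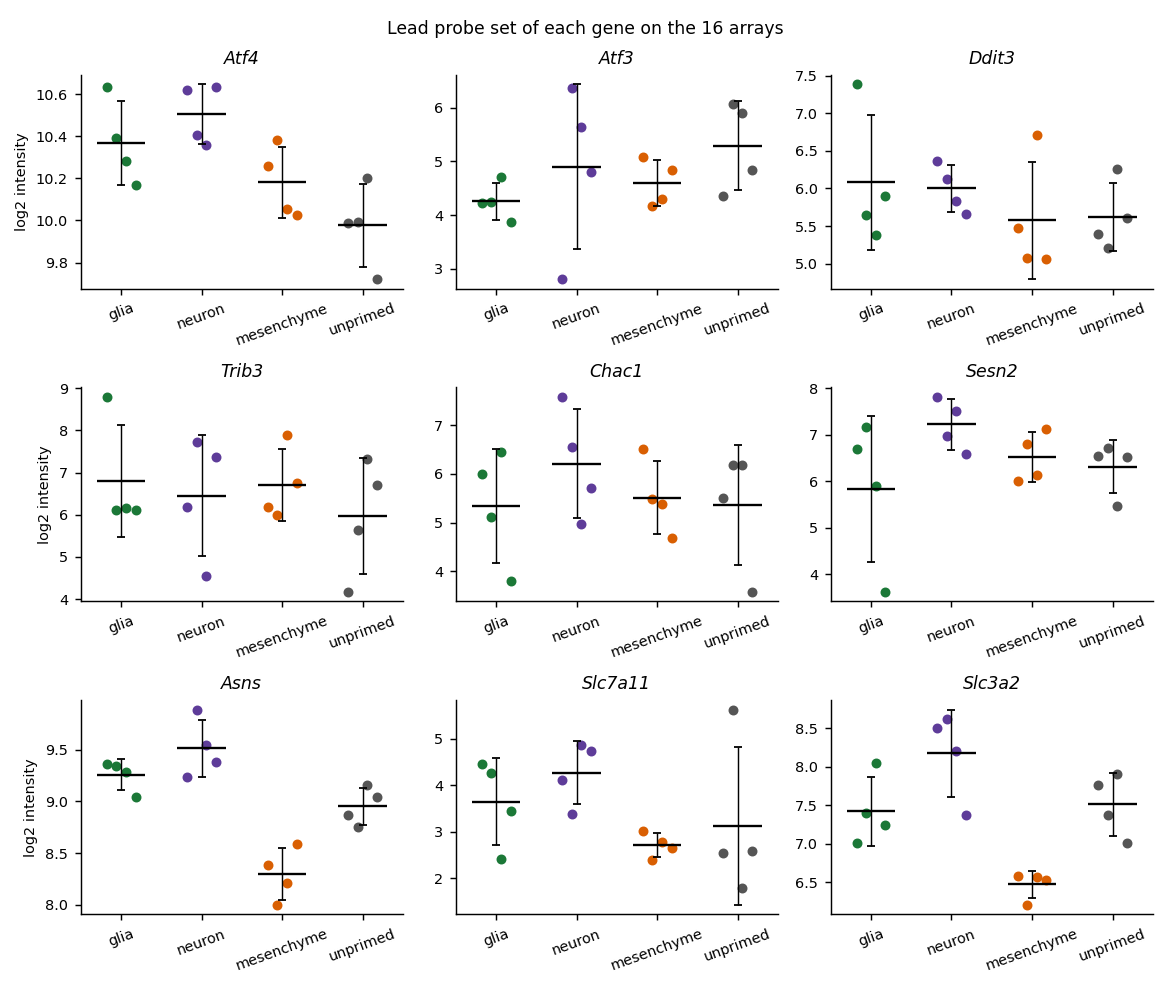
Log2 intensity of the lead probe set of each of the 9 genes (vertical axis, a separate scale for each gene) on every array, by group. Points are arrays, thick bars are group means and thin bars are ± 1 SD over 4 arrays. Asns and Slc3a2 have all 4 mesenchyme-primed arrays below all arrays of the other groups, while Trib3, Chac1 and Atf3 spread widely within groups.

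Asns, which makes asparagine from aspartate and glutamine and is a standard readout of ATF4, had its lowest level in mesenchyme-primed cells. Its lead probe set read 9.36, 9.35, 9.29 and 9.05 in glia-primed arrays and 9.24, 9.89, 9.55 and 9.39 in neuron-primed arrays. It read 8.39, 8.0, 8.21 and 8.59 in mesenchyme-primed arrays, against 8.87, 8.75, 9.16 and 9.04 in unprimed arrays. All 4 mesenchyme-primed arrays lay below the other 12. The share of all genes with a group wholly below or above the other 12 arrays was not counted, here or for the genes below. Asns was 2.33-fold higher in neuron-primed than in mesenchyme-primed cells, a log2 change of 1.22 (SE 0.18, 95% interval 0.84 to 1.60, limma adjusted p = 0.00558). It was 1.95-fold higher in glia-primed than in mesenchyme-primed cells, a log2 change of 0.96 (SE 0.18, 95% interval 0.58 to 1.34, adjusted p = 0.0381). In bulk RNA of this kind, fewer cells that express a gene and less RNA per cell cannot be told apart.

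The group means of Asns were 9.26 ± 0.15 in glia-primed cells, 9.52 ± 0.28 in neuron-primed cells and 8.30 ± 0.25 in mesenchyme-primed cells, against 8.95 ± 0.18 in unprimed cells (SD, n = 4 each). From high to low the order was neuron-primed, glia-primed, unprimed, mesenchyme-primed. No neighbours in that order differed past the threshold. Glia-primed minus neuron-primed was -0.26 (95% interval -0.63 to 0.12) and glia-primed minus unprimed was 0.31 (-0.07 to 0.68). Mesenchyme-primed cells did not overlap unprimed cells, at -0.66 (95% interval -1.03 to -0.28, adjusted p = 0.342), and neuron-primed cells did not overlap unprimed cells either, at 0.56 (0.18 to 0.94, adjusted p = 0.24). Among all genes, 5.69% did not overlap in the first of these comparisons and 5.53% in the second.

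The second Asns probe set gave the same order of mesenchyme-primed and other cells. This probe set, unlike the lead, carries the suffix of probe sets that may match other transcripts. It read 9.39, 8.71, 9.04 and 9.55 in glia-primed arrays and 9.70, 9.57, 9.02 and 8.99 in neuron-primed arrays. Mesenchyme-primed arrays read 7.97, 7.94, 7.94 and 8.26, against 8.77, 8.76, 9.35 and 8.94 in unprimed arrays. Here too the mesenchyme-primed arrays were the 4 lowest of 16. In a fit over all probe sets with 1 gene, the neuron-primed minus mesenchyme-primed difference was 1.3 (adjusted p = 0.0307), and the glia-primed minus mesenchyme-primed difference of 1.14 missed the threshold (adjusted p = 0.0687).

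Slc3a2 encodes the 4F2 heavy chain, the shared subunit that carries light chains such as Slc7a5 and Slc7a11 to the cell surface for amino acid exchange. It read 7.01, 7.40, 8.05 and 7.24 in glia-primed arrays and 8.5, 8.62, 8.20 and 7.37 in neuron-primed arrays. It read 6.58, 6.21, 6.58 and 6.53 in mesenchyme-primed arrays, against 7.76, 7.37, 7.91 and 7.01 in unprimed arrays. Again all 4 mesenchyme-primed arrays lay below every other array, and neuron-primed replicate 4 lay below the 3 other neuron-primed arrays. Slc3a2 was 3.25-fold higher in neuron-primed than in mesenchyme-primed cells, a log2 change of 1.70 (SE 0.29, 95% interval 1.07 to 2.32, adjusted p = 0.0203). Glia-primed cells were 0.95 above mesenchyme-primed cells with no overlap, which missed the threshold (95% interval 0.32 to 1.57, adjusted p = 0.373). In that comparison Asns and Slc3a2 were the 2 members that did not overlap, where 4.55% of all genes did not.

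The group means of Slc3a2 were 7.42 ± 0.45 in glia-primed cells, 8.17 ± 0.56 in neuron-primed cells and 6.47 ± 0.17 in mesenchyme-primed cells, against 7.51 ± 0.41 in unprimed cells (SD, n = 4 each). From high to low the order was neuron-primed, unprimed, glia-primed, mesenchyme-primed, and no neighbours differed past the threshold. Mesenchyme-primed minus unprimed was -1.04 (95% interval -1.66 to -0.41, adjusted p = 0.357), with no overlap. Neuron-primed minus unprimed was 0.66 (0.04 to 1.29, adjusted p = 0.475), and glia-primed minus unprimed was -0.09 (-0.71 to 0.54). The gene has 1 probe set, so no second reading was at hand.

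These 2 genes were the only members called, and their calls did not rest on the array that stood apart. Without neuron-primed replicate 1 the neuron-primed minus mesenchyme-primed difference was 1.31 for Asns (adjusted p = 0.0043) and 1.59 for Slc3a2 (adjusted p = 0.0358). Slc3a2 lost its call without neuron-primed replicate 2 or 3 or mesenchyme-primed replicate 1, 2 or 4, with adjusted p up to 0.0813. The Asns call between glia-primed and mesenchyme-primed cells was lost in 12 of the 16 fits that left out an array, with adjusted p up to 0.130, and kept without neuron-primed replicate 1, 2 or 4 or mesenchyme-primed replicate 4. With the Gapdh ratio as a covariate, the neuron-primed minus mesenchyme-primed differences were 1.22 for Asns and 1.78 for Slc3a2 (adjusted p = 0.0127 for each), and the glia-primed minus mesenchyme-primed difference of Asns was 0.96 (adjusted p = 0.0543). The mean of the 7 measured crest markers ranged over 6.79 to 7.55 on glia-primed arrays, 5.60 to 7.14 on neuron-primed arrays and 7.48 to 7.85 on mesenchyme-primed arrays. That of the 5 general neuron markers ranged over 5.41 to 5.81 on glia-primed arrays, 6.28 to 6.92 on neuron-primed arrays and 5.60 to 6.80 on mesenchyme-primed arrays. The part of these shifts in the Asns and Slc3a2 differences was not tested.

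**Figure D2:**
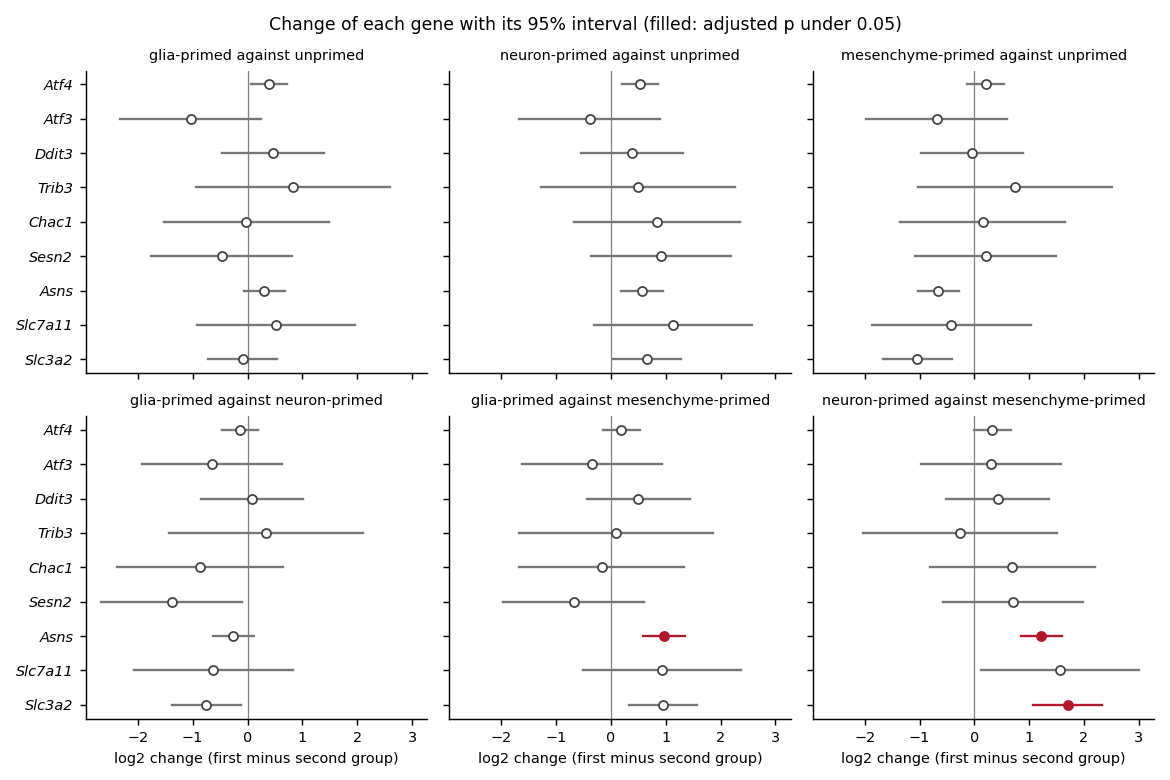
Log2 change of each gene in the 6 pairwise comparisons, first named group minus second, with its 95% interval from limma. Filled red points passed an adjusted p of 0.05 over all genes. Asns is filled in both comparisons with mesenchyme-primed cells and Slc3a2 only in neuron-primed against mesenchyme-primed cells, and the intervals of Trib3, Chac1 and Slc7a11 are among the widest.

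Slc7a11, the cystine and glutamate antiporter that pairs with Slc3a2 and feeds glutathione synthesis, had its lead probe set below the median gene. This probe set read 4.47, 4.27, 2.42 and 3.44 in glia-primed arrays and 4.11, 3.39, 4.86 and 4.73 in neuron-primed arrays. Mesenchyme-primed arrays read 3.02, 2.40, 2.78 and 2.65, against 2.54, 5.61, 1.79 and 2.59 in unprimed arrays. The neuron-primed arrays lay above the mesenchyme-primed arrays with no overlap, and the unprimed group alone spanned the whole range of the 16 arrays, with replicate 2 at its top. The neuron-primed minus mesenchyme-primed difference was 1.56 (95% interval 0.11 to 3.00), which missed the threshold (adjusted p = 0.558). In the second, dimmer probe set these groups overlapped, with neuron-primed arrays down to 1.45 and mesenchyme-primed arrays up to 1.67. The difference there was 0.78 (95% interval 0.14 to 1.42, limma adjusted p = 0.491 over all probe sets with 1 gene). No detection call was at hand, so the size of a change in a probe set this dim is only approximate. In that comparison the lead probe sets of 3 of the 9 members did not overlap (Asns, Slc3a2 and Slc7a11), where 4.17% of all genes did not.

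Atf4, the transcription factor at the centre of the response, varied least of the 9 between arrays of a group. Its lead probe set read 10.63, 10.39, 10.28 and 10.17 in glia-primed arrays, 10.62, 10.41, 10.36 and 10.63 in neuron-primed arrays, and 10.26, 10.38, 10.05 and 10.03 in mesenchyme-primed arrays, against 9.99, 9.99, 10.20 and 9.72 in unprimed arrays. Neuron-primed arrays lay above unprimed arrays with no overlap, by 0.53 (95% interval 0.19 to 0.86), which missed the threshold (adjusted p = 0.204). The other changes from unprimed cells were 0.39 in glia-primed cells (0.06 to 0.73, adjusted p = 0.392) and 0.20 in mesenchyme-primed cells (-0.13 to 0.54, adjusted p = 0.806).

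The second Atf4 probe set did not give the same picture for mesenchyme-primed against unprimed cells. It read 8.83, 9.16, 9.18 and 8.56 in glia-primed arrays, 8.87, 9.53, 8.5 and 9.29 in neuron-primed arrays, and 7.83, 8.33, 8.26 and 8.56 in mesenchyme-primed arrays, against 8.69, 8.74, 8.82 and 9.25 in unprimed arrays. Mesenchyme-primed minus unprimed was -0.62 (95% interval -1.15 to -0.10, adjusted p = 0.581), opposite in sign to the lead probe set, and neuron-primed minus mesenchyme-primed was 0.80 (0.28 to 1.32, adjusted p = 0.311). The lead carries the suffix of probe sets that may match other transcripts. The third and dimmest probe set gave -0.13 for mesenchyme-primed minus unprimed (95% interval -0.51 to 0.25, adjusted p = 0.919). For neuron-primed minus mesenchyme-primed cells the lead gave 0.32 (95% interval -0.01 to 0.66, limma adjusted p = 0.632). The third probe set gave 0.23 there (-0.15 to 0.61, limma adjusted p = 0.820), so all 3 were above 0 in that comparison. None of the Atf4 changes passed in any of the 3 probe sets, so no direction is given for Atf4 mRNA in mesenchyme-primed cells.

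**Figure D3:**
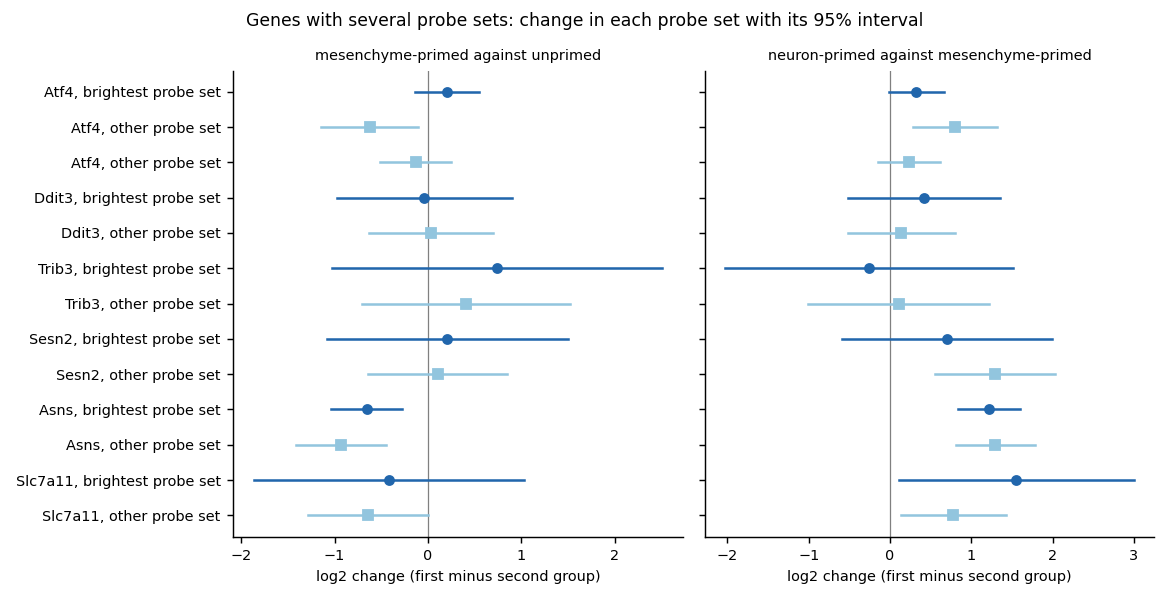
Log2 change of every probe set of the 6 genes that have several, mesenchyme-primed minus unprimed (left) and neuron-primed minus mesenchyme-primed (right), with 95% intervals. Dark circles are the brightest probe set of a gene and light squares the others. The 2 Asns probe sets lie together in both panels, whereas the 2 brighter Atf4 probe sets lie on opposite sides of 0 on the left.

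Ddit3 and Atf3, the factors that ATF4 induces under strong stress, did not differ past the threshold between any groups. Ddit3, also called CHOP and linked to stress-induced cell death, read 7.38, 5.65, 5.38 and 5.90 in glia-primed arrays, 6.37, 6.13, 5.84 and 5.66 in neuron-primed arrays, and 5.47, 5.07, 6.71 and 5.06 in mesenchyme-primed arrays, against 5.40, 5.21, 6.25 and 5.61 in unprimed arrays. Single arrays set its highest values, namely glia-primed replicate 1, mesenchyme-primed replicate 3 and unprimed replicate 3. Its changes from unprimed cells were 0.46 in glia-primed cells (95% interval -0.47 to 1.39), 0.38 in neuron-primed cells (-0.55 to 1.31) and -0.04 in mesenchyme-primed cells (-0.97 to 0.89). The first and the second of these intervals reach above 1 unit, so a change of that size cannot be told from none.

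Atf3, a stress-induced repressor of the same bZIP family, read 4.22, 4.23, 4.70 and 3.87 in glia-primed arrays, 2.81, 6.35, 5.64 and 4.79 in neuron-primed arrays, and 5.08, 4.17, 4.31 and 4.84 in mesenchyme-primed arrays, against 4.35, 6.07, 5.90 and 4.84 in unprimed arrays. The neuron-primed group held both the lowest and the highest of the 16 values. Its changes from unprimed cells were -1.04 in glia-primed cells (95% interval -2.32 to 0.25, adjusted p = 0.621), -0.39 in neuron-primed cells (-1.67 to 0.89) and -0.69 in mesenchyme-primed cells (-1.97 to 0.59). Atf3 was the only member with all 3 changes below 0, and none of them passed.

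Trib3 and Chac1, 2 ATF4 and CHOP targets, varied most between arrays of a group. Trib3 is a pseudokinase that feeds back on the response, and it read 8.79, 6.12, 6.16 and 6.12 in glia-primed arrays, 6.17, 7.72, 4.54 and 7.37 in neuron-primed arrays, and 6.18, 6.0, 7.89 and 6.75 in mesenchyme-primed arrays, against 4.18, 5.64, 7.33 and 6.71 in unprimed arrays. In glia-primed cells 3 arrays were nearly equal and replicate 1 stood far above them. Its changes from unprimed cells were 0.83 in glia-primed cells (95% interval -0.94 to 2.60), 0.49 in neuron-primed cells (-1.28 to 2.25) and 0.74 in mesenchyme-primed cells (-1.03 to 2.51). The lead probe set of Trib3, like that of Atf4, carries the suffix of probe sets that may match other transcripts. The second, dimmer Trib3 probe set also read highest on glia-primed replicate 1, at 5.42 against 3.15 to 3.30 on the other glia-primed arrays. For neuron-primed minus mesenchyme-primed cells the lead gave -0.25 and the second 0.11, and neither passed.

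Chac1, an enzyme that breaks down glutathione, read 6.0, 5.11, 6.46 and 3.81 in glia-primed arrays, 7.57, 6.56, 4.98 and 5.71 in neuron-primed arrays, and 6.50, 5.49, 5.37 and 4.70 in mesenchyme-primed arrays, against 5.50, 6.19, 6.18 and 3.59 in unprimed arrays. All groups overlapped. Its changes from unprimed cells were -0.02 in glia-primed cells (95% interval -1.53 to 1.49), 0.84 in neuron-primed cells (-0.67 to 2.35) and 0.15 in mesenchyme-primed cells (-1.36 to 1.66).

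Sesn2, which binds leucine and restrains mTORC1, had its highest mean in neuron-primed cells without passing the test. Its lead probe set read 6.68, 7.16, 5.89 and 3.63 in glia-primed arrays, 7.80, 6.98, 7.50 and 6.59 in neuron-primed arrays, and 6.01, 6.80, 6.13 and 7.12 in mesenchyme-primed arrays, against 6.55, 6.71, 5.46 and 6.51 in unprimed arrays. Neuron-primed minus unprimed was 0.91 (95% interval -0.37 to 2.20, adjusted p = 0.686). Its second probe set read 7.08, 7.10, 7.65 and 7.08 in neuron-primed arrays, against 6.38, 5.0, 6.03 and 5.93 in unprimed arrays. The second probe set also read 6.65, 6.46, 5.32 and 6.58 in glia-primed and 6.02, 6.37, 6.09 and 5.29 in mesenchyme-primed arrays, so all 4 neuron-primed arrays were above the other 12. That neuron-primed minus unprimed difference was 1.39 (95% interval 0.65 to 2.13, adjusted p = 0.135 over all probe sets with 1 gene).

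Across the 9 genes, values above 0 were most frequent for neuron-primed against unprimed and against mesenchyme-primed cells. The median change was 0.56 for neuron-primed against unprimed cells, with 8 members above 0 beside 50.5% of all genes. It was 0.69 for neuron-primed against mesenchyme-primed cells, also with 8 above 0, beside 51.2% of all genes. It was 0.31 for glia-primed and -0.04 for mesenchyme-primed against unprimed cells, 0.19 for glia-primed against mesenchyme-primed and -0.62 for glia-primed against neuron-primed cells. The medians of all genes lay between -0.01 and 0.01 in these comparisons. The comparisons share groups, so they are not independent readings. No member was called for neuron-primed against unprimed cells, and only Asns and Slc3a2 were called for neuron-primed against mesenchyme-primed cells. In both comparisons the uncalled Trib3 and Atf3 changed sign in at least 1 alternative, so no direction is drawn from these counts. The SD between arrays within groups was 0.18 for Atf4, 0.22 for Asns and 0.42 for Slc3a2, but 0.65 for Ddit3 and between 0.91 and 1.27 for Atf3, Sesn2, Slc7a11, Chac1 and Trib3. The genes that were called are thus among the 3 with the smallest spread, and the intervals of the other 6 are wider.

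Members did not vary together within groups in a way that passed a test. Over the 36 pairs of members, with group means removed and 16 arrays, the median Pearson r was 0.11 and 0 pairs passed a permutation test after Benjamini-Hochberg adjustment by Pearson or Spearman correlation, with 3 pairs under 0.05 unadjusted by Pearson. The strongest pair was Ddit3 and its target Trib3, with r = 0.66 (permutation p = 0.0106, adjusted 0.383) and rho = 0.61 (permutation p = 0.0204, adjusted 0.426). Without the 2 arrays farthest from the median of Ddit3 its r was 0.44. Asns and Slc3a2 had r = 0.29 within groups (permutation p = 0.352, adjusted 0.994; rho = 0.30, permutation p = 0.306, adjusted 0.985).

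Over all 16 arrays with group differences kept, the pattern of Slc3a2 was most like those of Hoxc5 (Pearson r = 0.83) and Asns (0.81) among 9097 genes brighter than the median gene. Asns was most like Dst (0.91) and Dpysl3 (0.89). For Atf4 the nearest genes were Nfkbia (0.83) and Serinc5 (0.81), for Atf3 Sgk1 (0.80) and Zfp36l2 (0.74), and for Sesn2 Ncapd2 (0.89) and Nfatc3 (0.85). These are descriptions over 4 groups on the same arrays, picked as the highest of many. The remaining members had nearest genes with r of 0.72 to 0.80, which were Nxn and 9430038I01Rik for Ddit3, Ccdc50 and Nudcd3 for Trib3, Nab2 and Dctn4 for Chac1, and Smdt1 and Ttc5 for Slc7a11.

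The rest of the pathway was read from 11 lists of genes around the 9 members. Upstream, the 4 eIF2 kinases (Eif2ak1, Eif2ak2, Eif2ak3 and Eif2ak4) had no called gene in any comparison, and their median changes from unprimed cells were -0.24 in glia-primed cells, -0.41 in neuron-primed cells and -0.45 in mesenchyme-primed cells. These medians moved with the scaling. In glia-primed cells the median was -0.15 with quantile normalization, -0.0026 with housekeeping centring and 0.0062 with the Gapdh ratio as a covariate. In neuron-primed cells it was -0.14 with housekeeping centring, and in mesenchyme-primed cells -0.22 with the Gapdh ratio. Of 12 measured subunits of eIF2, its exchange factor eIF2B and the phosphatases that reverse the response, Ppp1ca fell. It averaged 9.83 ± 0.15 in glia-primed cells, 9.71 ± 0.18 in neuron-primed cells and 9.69 ± 0.18 in mesenchyme-primed cells, against 10.43 ± 0.23 in unprimed cells (SD, n = 4 each). The change of the primed mean was -0.69 (SE 0.13, adjusted p = 0.0404). That call was lost with quantile normalization, cyclic loess, centring on housekeeping genes and the Gapdh ratio as a covariate.

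Among 19 other measured ATF4 targets 1 was called, and it was lower in glia-primed than in mesenchyme-primed cells, where Asns was higher. Ddit4, an inhibitor of mTORC1 that is also induced by hypoxia and glucocorticoids, averaged 9.59 ± 0.67 in glia-primed and 10.31 ± 0.67 in neuron-primed cells. Its level was 11.79 ± 0.51 in mesenchyme-primed cells, against 10.52 ± 0.45 in unprimed cells (SD, n = 4 each). Glia-primed minus mesenchyme-primed was -2.20 (SE 0.39, adjusted p = 0.0325). The median change of this list was 0.31 for glia-primed and 0.40 for neuron-primed against mesenchyme-primed cells, with 14 of 19 values above 0 in each. Chosen after its values were seen, Cth, which makes cysteine by transsulfuration, averaged 5.46 ± 0.90 in glia-primed and 5.30 ± 0.89 in neuron-primed cells, against 2.94 ± 0.37 in mesenchyme-primed cells, and missed the threshold in both comparisons (adjusted p = 0.0863 and 0.104).

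Of 17 other amino acid transporters, Slc6a15, a carrier of neutral amino acids that include the branched-chain ones, rose. It averaged 6.96 ± 0.67 in glia-primed cells, 5.05 ± 0.69 in neuron-primed cells and 4.38 ± 1.15 in mesenchyme-primed cells, against 2.77 ± 0.68 in unprimed cells (SD, n = 4 each). Its change was 4.19 in glia-primed cells (SE 0.54, adjusted p = 0.00311) and 2.69 for the mean of the primed groups (SE 0.44, adjusted p = 0.0208). Both calls were lost with the Gapdh ratio as a covariate, where 0 of the 17 transporters were called by limma in either comparison. For glia-primed against mesenchyme-primed cells 13 of the 17 values were above 0 and 4 below (median 0.47, lowest -1.35). There 3 transporters did not overlap, beside 4.55% of all genes. For neuron-primed against mesenchyme-primed cells 11 were above 0 and 6 below (median 0.18, lowest -1.65). In that comparison 2 did not overlap, beside 4.17% of all genes. The transporters below were chosen after their values were seen. Slc7a1, a carrier of cationic amino acids, averaged 9.72 ± 0.40 in glia-primed and 9.73 ± 0.30 in neuron-primed cells, against 8.73 ± 0.41 in mesenchyme-primed cells, with no overlap and adjusted p = 0.159 and 0.136. Slc7a5, a light chain of Slc3a2, was 1.26 higher in neuron-primed than in mesenchyme-primed cells, with overlap (adjusted p = 0.264).

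The aminoacyl-tRNA synthetases, which charge tRNAs and include many ATF4 targets, had no called gene among 19 measured. All 19 values were below 0 in mesenchyme-primed against unprimed cells, with a median of -0.64 and a range of -1.25 to -0.15. In the same comparison 59.1% of the 9097 genes brighter than the median gene were below 0, with a median of -0.11. The groups did not overlap for 3 of the 19, which were Farsa, Farsb and Vars, beside 5.69% of all genes. All 19 stayed below 0 with quantile normalization, cyclic loess and housekeeping centring, and 18 did with the Gapdh ratio as a covariate. Against mesenchyme-primed cells, 17 of 19 values were above 0 in glia-primed cells (median 0.43) and 18 of 19 in neuron-primed cells (median 0.38). Against unprimed cells the medians were -0.18 in glia-primed and -0.09 in neuron-primed cells, and these had no stable sign. Housekeeping centring gave 0.05 in glia-primed and 0.19 in neuron-primed cells, and in neuron-primed cells quantile normalization gave 0.02 and cyclic loess 0.06.

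Serine, glycine and one-carbon enzymes likewise had no called gene among 10 measured, though 1 was called for neuron-primed against mesenchyme-primed cells with housekeeping centring. Their median was 0.59 for glia-primed and 0.44 for neuron-primed against mesenchyme-primed cells, with 8 of 10 above 0 in each, and -0.19 for mesenchyme-primed against unprimed cells. Mthfd2, a mitochondrial folate enzyme chosen after its values were seen, averaged 9.03 ± 0.48 in glia-primed and 8.98 ± 0.46 in neuron-primed cells, against 8.06 ± 0.17 in mesenchyme-primed cells (SD, n = 4 each; adjusted p = 0.229 and 0.218). By contrast Psat1, of the same list, was 0.18 lower in neuron-primed than in mesenchyme-primed cells, with overlap (adjusted p = 0.915).

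**Figure D4:**
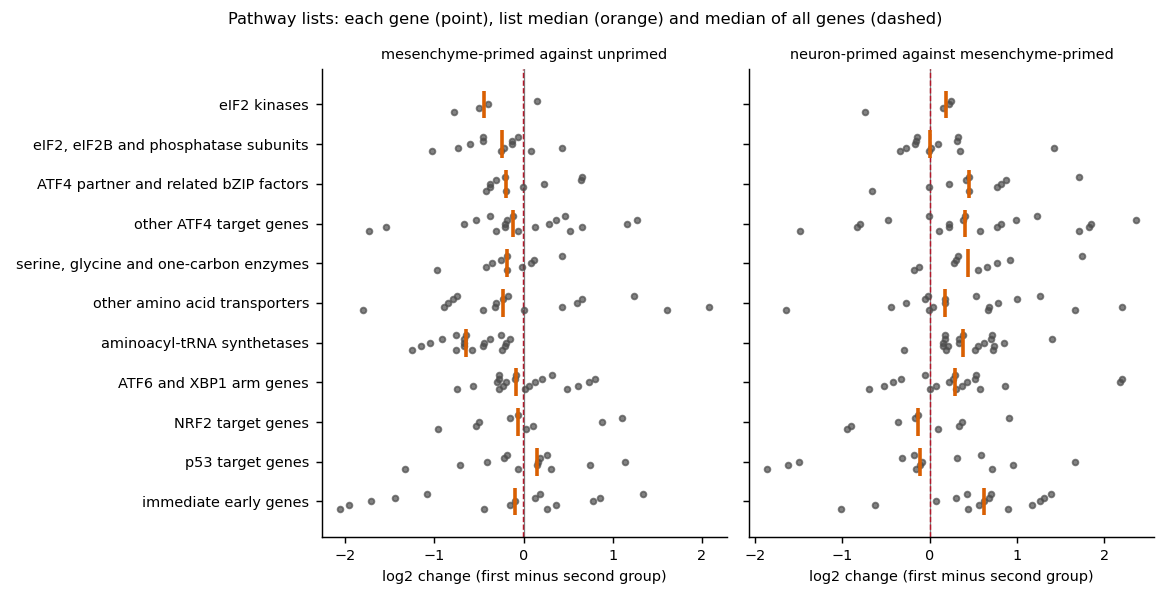
Log2 change of each measured gene (points) in 11 lists, mesenchyme-primed minus unprimed (left) and neuron-primed minus mesenchyme-primed (right). Orange bars are list medians, and the dashed line is the median of all 18194 genes. All 19 aminoacyl-tRNA synthetases lie below 0 on the left, with a median of -0.64.

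A further 5 lists, of related factors and of other stress responses, gave 0 called genes by limma in all 7 comparisons. They were 10 measured bZIP partners of ATF4, of which Atf5, Cebpb, Cebpg and Jdp2 are also on the list of other ATF4 targets, 19 genes of the ATF6 and XBP1 arms of the unfolded protein response, 9 NRF2 targets, 13 p53 targets and 15 immediate early genes. Median changes from unprimed cells in the ATF6 and XBP1 list were 0.07 in glia-primed cells, 0.22 in neuron-primed cells and -0.08 in mesenchyme-primed cells. In the NRF2 list they were -0.11 for glia-primed, -0.10 for neuron-primed and -0.07 for mesenchyme-primed cells. The p53 list had medians of 0.08 for glia-primed, -0.27 for neuron-primed and 0.15 for mesenchyme-primed cells. Immediate early genes, which follow fresh growth factor signals, had medians of 0.20 for glia-primed, 0.29 for neuron-primed and -0.09 for mesenchyme-primed cells. For the bZIP list they were 0.03 for glia-primed, 0.32 for neuron-primed and -0.20 for mesenchyme-primed cells. Under at least 1 of the other scalings or the Gapdh covariate the sign turned for all 3 NRF2 medians, for the bZIP median in glia-primed cells, for the p53 median in neuron-primed cells, and for the ATF6 and XBP1 and the immediate early medians in mesenchyme-primed cells.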

How the data were processed

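Each array has 1 deposited intensity per probe set, which the authors made with RMA, per the submitters' processing notes, where no version is named. These intensities ran from 1.49 to 31600, a linear scale, so values were turned to log2 here, without an offset or another normalization. Per the labels' protocols, biotin-labelled cRNA came from 2 ug of total RNA. Of 45101 probe sets, 34958 named 1 gene symbol, 932 several and 9211 were not listed in the platform annotation, and 99.4% of the single-symbol ones matched GRCm38.p6 genes by Entrez identifier. The probe set with the highest mean stood for each of 18194 genes. Array medians lay at 3.05 to 3.15 (log2), and precision is limited by how many arrays there are.

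The limma package (3.58.1, R 4.3.3) fitted a group-means model over 16 arrays (lmFit, eBayes) for 7 comparisons and an F test, two-sided, with Benjamini-Hochberg adjustment over all genes. The model was tested on simulated data. Correlations used 100000 permutations within groups, and promoters are from RefSeq. The members and the gene lists were chosen with earlier results of these data known. Members are always named; of each list up to 3 called genes per comparison are named, and other list genes were chosen after their values were seen. For each member the 2 genes most like it are named. Alternatives were other scalings, probe set choices, filters, fits, covariates, the replicate number as a block, and leaving out each array. List and marker genes without a single-symbol probe set were not analysed here.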

Additional observations from a re-analysis of the deposited data

Results flagged for a closer look

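In 3 of the 36 gene and group combinations checked, 1 array stood apart from the other 3 of its group by Dixon's criterion, and chance alone flags about 1 in 20 such groups. Trib3 read 8.79 on glia-primed replicate 1, against 6.12 to 6.16 on the other glia-primed arrays. Sesn2 read 5.46 on unprimed replicate 3, below the other unprimed arrays. Slc3a2 read 6.21 on mesenchyme-primed replicate 2, below the other mesenchyme-primed arrays, which read 6.53 to 6.58. Without that array the neuron-primed minus mesenchyme-primed difference of Slc3a2 was 1.61 and missed the threshold (limma adjusted p = 0.0813).

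The change from unprimed cells differed between primed groups for 3 gene and lineage pairs, by the test of the difference itself. These are the same calls between primed groups that are given above. The change of Asns was 0.96 larger in glia-primed than in mesenchyme-primed cells (adjusted p = 0.0381) and 1.22 larger in neuron-primed than in mesenchyme-primed cells (adjusted p = 0.00558). The change of Slc3a2 was 1.70 larger in neuron-primed than in mesenchyme-primed cells (adjusted p = 0.0203). All 4 arrays of the higher group lay above all 4 mesenchyme-primed arrays in each pair. The unprimed arrays cancel in these differences, and no change of either gene from unprimed cells passed by itself.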

How the results depend on the processing

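Across 32 alternatives, no call of Asns or Slc3a2 changed direction. For neuron-primed against mesenchyme-primed cells, Asns passed in 31 of 32 (change 1.09 to 1.43, adjusted p 0.00187 to 0.129) and Slc3a2 in 25 of 32 (1.54 to 1.97, adjusted p 0.0065 to 0.127). For glia-primed against mesenchyme-primed cells, Asns passed in 14 of 32 (0.86 to 1.16, adjusted p 0.00859 to 0.187). The number of members called between glia-primed and mesenchyme-primed cells, 1 as reported, was 0 with the replicate number as a block, with only genes above the median gene, with only the groups compared, with a test against a 1.2-fold change, with the Gapdh ratio as a covariate, and with the second brightest probe set of each member, an alternative chosen after seeing the data. It was 0 to 1 when single arrays were left out. Between neuron-primed and mesenchyme-primed cells, 2 as reported, it was 0 with only the groups compared, 1 in the test against a 1.2-fold change, and 1 to 2 when single arrays were left out. In the F test, 1 as reported, it was 0 with the replicate block, 2 with housekeeping centring, the mean of probe sets, array weights or the Gapdh ratio, and 0 to 2 when single arrays were left out. Fits of only the groups compared hold fewer arrays, and the cause of the other changes was not tested. The counts of 0 against unprimed cells and between glia-primed and neuron-primed cells held in every alternative run.

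Replicate numbers shared between groups did not pair the arrays: deviations from group means of same-numbered arrays had correlations of -0.067 to 0.064 over 24 pairs. With the replicate block, adjusted p was 0.0322 for Asns and 0.0251 for Slc3a2 in neuron-primed against mesenchyme-primed cells, and 0.120 for Asns in glia-primed against mesenchyme-primed cells. Of 60 uncalled gene and comparison pairs, 31 changed sign in at least 1 alternative, so no direction is drawn from them. Housekeeping centring moved the median of all genes by -0.04 to 0.27 and other scalings by at most 0.01. A test against a 1.2-fold change has no F form, and fits of only the groups compared were not run for the mean of the primed groups or the F test.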
